A study of Gallus gallus with 6 samples.

Results

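The cholinergic and adrenergic receptors described here are 9 genes, the muscarinic receptors CHRM2, CHRM3 and CHRM4, the nicotinic receptor subunits CHRNA4 and CHRNA7, and the adrenergic receptors ADRA1B, ADRA1D, ADRA2A and ADRB1. They were followed across 3 vessels of the chick embryo. The members were taken by gene symbol, and 8 of the 9 carry their symbol in the annotation of the array. The probe set of CHRNA4 was instead named through the table of hypoxia-related genes in the study, since that annotation, as used here, gives it no symbol. For each of the 9 genes 1 probe set was found in this way, out of 20804 probe sets on the array. Probe sets with no symbol or with several were not searched further, so that more probe sets of these genes may exist.

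The tissues were the proximal DA (the part of the right-sided ductus arteriosus next to the pulmonary artery, labelled as pulmonary-sided), the distal DA (the part next to the aorta, labelled as aorta-sided) and the descending aorta. All came from Hypeco Nera chicken embryos at the internal pipping (IP) stage, when the beak has entered the air cell of the egg. There were 2 arrays per tissue, 6 in all, and each RNA sample was made from tissue pooled from 10 embryos, so that single embryos cannot be followed. No source used here says whether the 2 arrays of a tissue stand for separate pools, so that the p-values rest on the spread between arrays alone, which may be no more than technical. Whole vessel segments were used, so that fewer cells of a type and less RNA per cell cannot be told apart.

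Acetylcholine and the catecholamines are the transmitters of the autonomic nerves that reach the vessel wall. Muscarinic receptors are G protein-coupled receptors: CHRM2 and CHRM4 couple to inhibitory G proteins that lower cyclic AMP and open potassium channels, and CHRM3 couples to the Gq proteins that release calcium from stores, which contracts smooth muscle or, in endothelium, drives nitric oxide synthesis. Nicotinic receptors are ion channels opened by acetylcholine. Among the adrenergic receptors, ADRA1B and ADRA1D couple to Gq and contract smooth muscle, ADRA2A couples to inhibitory G proteins, and ADRB1 raises cyclic AMP. The study describes closure of the ductus arteriosus as constriction combined with morphological remodeling. By its account the proximal DA constricts in response to oxygen and closes after hatching, whereas the distal DA does neither. Both receptor families are known regulators of vascular tone.

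The values are log2 intensities that the authors obtained by RMA, so that a step of 1 stands for a doubling. RMA corrects for background, brings the arrays to a common distribution and summarises the probes of a gene. Levels were compared only between tissues and not between genes. Array medians lay between 6.61 and 6.66 and lower quartiles between 5.25 and 5.41. The values come with no detection call, and where a value lies below the lower quartiles it cannot be told from background, and differences from it have only a rough size. A value above them is not thereby shown to be signal of the gene. All 3 tissues were compared in 1 limma fit. A probe set was called at an adjusted p under 0.05 over all 20804 probe sets (Benjamini-Hochberg). With 2 arrays per tissue the precision is limited, and a difference had a standard error (SE) of 0.167 in the median probe set.

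In the proximal DA, 5 of the 9 receptors were called higher than in the aorta, beside 3.33% of all probe sets. These were CHRM2, CHRM4, CHRNA7, ADRA1D and ADRA2A. Their fold differences ran from 1.86 to 5.06. None of the 9 was called lower there. Between the proximal and the distal DA, and between the distal DA and the aorta, none of the 9 was called by limma. At an unadjusted p under 0.05, 5 and 6 of them passed, beside 7.31% and 10.8% of all probe sets. Earlier results of these arrays were known when the 9 genes were picked. The order of the means was proximal DA, distal DA, aorta for 8 of the 9 genes, an order held by 21.0% of all probe sets. CHRNA4 was the exception, with its lowest mean in the proximal DA.

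**Figure D1:**
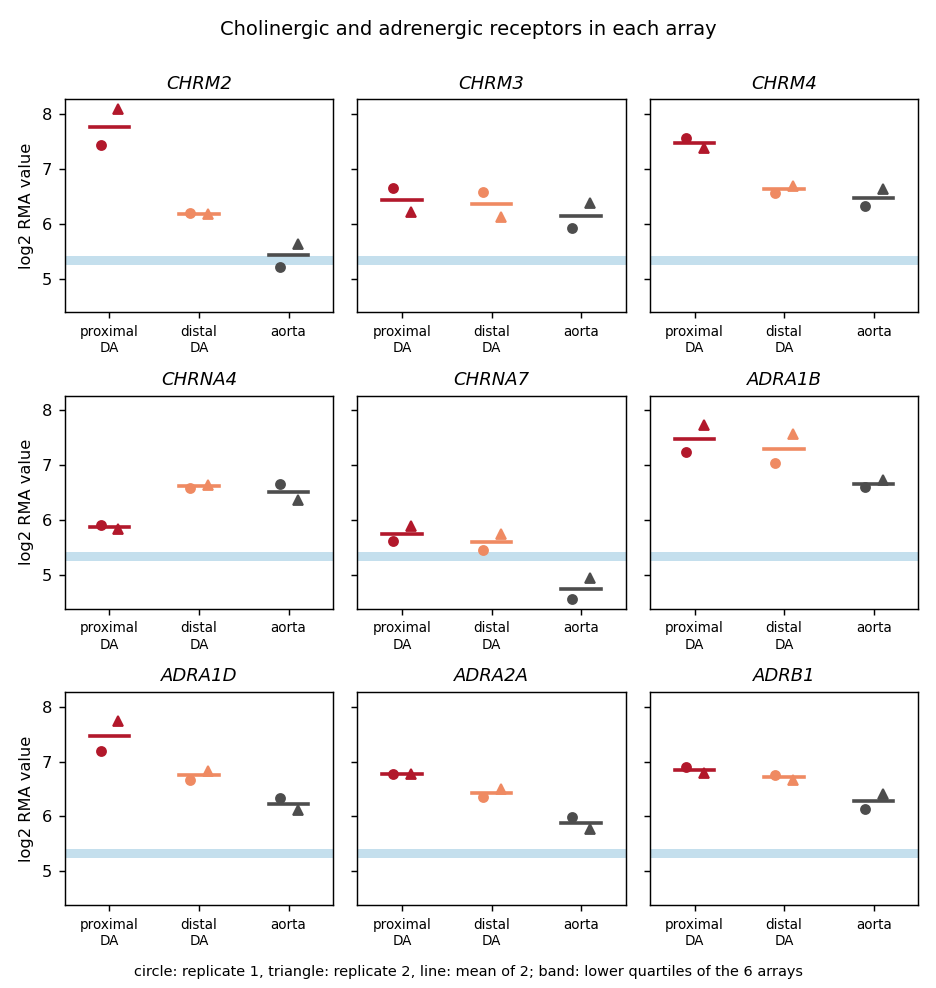
Log2 RMA value (vertical axis) of each receptor gene in each array of proximal DA, distal DA and aorta, with replicate 1 as a circle, replicate 2 as a triangle, the mean of 2 as a line and the lower quartiles of the 6 arrays as a band. CHRM2 stood at 7.44 and 8.09 in proximal DA, against 6.19 and 6.18 in distal DA and 5.22 and 5.63 in aorta, while CHRNA4 was low only in the proximal DA, at 5.91 and 5.84.

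CHRM2, the muscarinic receptor best known for slowing the heart, showed the largest difference of the 9. The study lists it among the genes highest in the proximal against the distal DA on these same arrays. Its direction and size are thus not independent evidence. Its log2 value was 7.44 and 8.09 in the proximal DA, against 6.19 and 6.18 in the distal DA and 5.22 and 5.63 in the aorta, and the arrays of the 3 tissues did not overlap. The proximal DA mean was 7.77 ± 0.46 and the aorta mean 5.43 ± 0.29 (SD, n = 2 each), a log2 difference of 2.34 (SE 0.24, 5.06-fold, adjusted p = 0.00211 from limma). This call held with each array left out in turn, where the difference ranged from 2.02 to 2.67 and the adjusted p stayed at or below 0.0169. One aorta value lay below the lower quartile of its array, so that the size is a rough one. Against the distal DA, with a mean of 6.19 ± 0.01 (SD, n = 2), the proximal DA was higher by 1.58 (SE 0.24, 2.99-fold), which did not pass (adjusted p = 0.0637, unadjusted p = 0.000235). The same difference passed when the variance model allowed a trend with intensity and was made robust (adjusted p = 0.0441). The distal DA exceeded the aorta by 0.76 (95% interval 0.20 to 1.32, adjusted p = 0.253).

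CHRM4 couples to the same inhibitory G proteins as CHRM2, but its values made 1 step and not 2. It stood at 7.57 and 7.38 in the proximal DA, against 6.57 and 6.69 in the distal DA and 6.32 and 6.63 in the aorta. Both proximal DA arrays lay above all others, while the distal DA and the aorta overlapped. The proximal DA exceeded the aorta by 1.0 (SE 0.16, 2.0-fold, adjusted p = 0.0141 from limma) and the distal DA by 0.85 (SE 0.16, 1.80-fold, adjusted p = 0.131). The difference between the distal DA and the aorta was 0.16, with a 95% interval from -0.23 to 0.54. The call against the aorta was lost without proximal DA replicate 1 (adjusted p = 0.0810), proximal DA replicate 2 (0.0612) or aorta replicate 1 (0.0519), where the difference was 0.91, 1.10 and 0.85.

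CHRM3, the Gq-coupled muscarinic receptor, was called in no comparison. Its values were 6.65 and 6.21 in the proximal DA, against 6.58 and 6.13 in the distal DA and 5.93 and 6.37 in the aorta, and the arrays overlapped in every comparison. The proximal DA minus the aorta gave 0.28 (95% interval -0.28 to 0.84, adjusted p = 0.622), the proximal minus the distal DA 0.08 (-0.48 to 0.63, adjusted p = 0.997), and the distal DA minus the aorta 0.21 (-0.35 to 0.76, adjusted p = 0.877). These intervals do not show that the level was equal, and a difference of up to 0.84 between the proximal DA and the aorta lay within them.

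The 2 nicotinic subunits differed from each other in pattern. CHRNA7, which can form calcium-permeable channels of its own subunit alone, was at 5.61 and 5.89 in the proximal DA, against 5.46 and 5.74 in the distal DA and 4.56 and 4.94 in the aorta. Both parts of the DA lay above both aorta arrays, and they overlapped each other. The proximal DA exceeded the aorta by 1.0 (SE 0.19, 2.0-fold, adjusted p = 0.0268 from limma), and the distal DA exceeded it by 0.85 (SE 0.19, adjusted p = 0.103). Both aorta values were below the lower quartiles of their arrays and cannot be told from background. The call in the proximal DA was lost without proximal DA replicate 1 (adjusted p = 0.0690), proximal DA replicate 2 (0.143) or aorta replicate 1 (0.0890). With the replicate number as a block, the distal DA difference passed (adjusted p = 0.0446).

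CHRNA4, a subunit of the nicotinic receptors that are common in the brain, ran the other way. It was at 5.91 and 5.84 in the proximal DA, against 6.59 and 6.64 in the distal DA and 6.66 and 6.37 in the aorta. Both proximal DA arrays lay below all the others, and the distal DA and the aorta overlapped. The difference of the proximal DA was -0.74 from the distal DA (95% interval -1.1 to -0.38, unadjusted p = 0.00158, adjusted p = 0.155) and -0.64 from the aorta (-1.0 to -0.28, unadjusted p = 0.00358, adjusted p = 0.0579). Neither passed in the fit of the deposited values, and the difference from the aorta passed at an adjusted p = 0.0492 after cyclic loess normalization. The table that names this probe set was made by the study from these same arrays, so that its direction is not independent evidence.

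The alpha-1 adrenergic receptors, which contract smooth muscle, were highest in the proximal DA and lowest in the aorta by mean. ADRA1D had 7.19 and 7.74 in the proximal DA, against 6.67 and 6.83 in the distal DA and 6.33 and 6.12 in the aorta, with no overlap between tissues. The proximal DA exceeded the aorta by 1.24 (SE 0.21, 2.36-fold, adjusted p = 0.0146 from limma) and the distal DA by 0.72 (SE 0.21, adjusted p = 0.347), and the distal DA exceeded the aorta by 0.53 (95% interval 0.04 to 1.01, adjusted p = 0.400). The call against the aorta was lost without proximal DA replicate 2 (adjusted p = 0.0677) or aorta replicate 2 (0.0581).

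ADRA1B gave 7.24 and 7.73 in the proximal DA, against 7.04 and 7.57 in the distal DA and 6.6 and 6.73 in the aorta. The 2 parts of the DA overlapped, and both lay above the aorta. Its proximal DA mean exceeded that of the aorta by 0.82 (95% interval 0.28 to 1.36, adjusted p = 0.100) and the distal DA exceeded it by 0.64 (0.10 to 1.18, adjusted p = 0.348). Neither passed. In both parts of the DA, replicate 2 was higher than replicate 1, and with the replicate number as a block the proximal DA difference passed (adjusted p = 0.0406).

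ADRA2A, the inhibitory alpha-2 receptor, had 6.78 and 6.77 in the proximal DA, against 6.36 and 6.50 in the distal DA and 5.99 and 5.77 in the aorta. The 3 tissues did not overlap. The proximal DA exceeded the aorta by 0.90 (SE 0.15, 1.86-fold, adjusted p = 0.0142 from limma), the distal DA exceeded the aorta by 0.55 (SE 0.15, adjusted p = 0.165), and the proximal DA exceeded the distal DA by 0.35 (SE 0.15, adjusted p = 0.683). The call was lost without proximal DA replicate 1 (adjusted p = 0.0690), proximal DA replicate 2 (0.0778) or aorta replicate 2 (0.0667).

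ADRB1, the beta-1 receptor that raises cyclic AMP, was at 6.90 and 6.80 in the proximal DA, against 6.76 and 6.66 in the distal DA and 6.14 and 6.41 in the aorta. Both parts of the DA lay above the aorta with small gaps. The differences were 0.58 for the proximal DA (95% interval 0.22 to 0.93, unadjusted p = 0.00637, adjusted p = 0.0833) and 0.44 for the distal DA (0.08 to 0.79, unadjusted p = 0.0234, adjusted p = 0.328), and neither passed. Between the proximal and the distal DA, ADRB1 differed by 0.14 (-0.22 to 0.50).

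**Figure D2:**
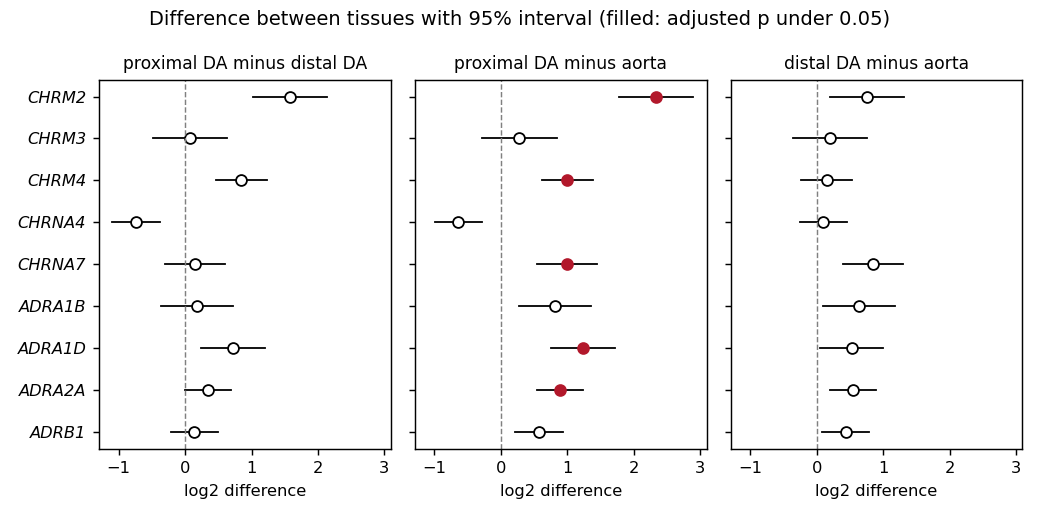
Log2 difference (horizontal axis) of each receptor gene for the proximal DA minus the distal DA, the proximal DA minus the aorta and the distal DA minus the aorta, with lines for the 95% intervals of the limma fit and filled points for an adjusted p under 0.05. The 5 filled points all stand in the comparison of the proximal DA with the aorta, led by CHRM2 at 2.34.

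Read against all probe sets, the counts were as follows. In the proximal DA against the aorta, 5 of 9 receptors were called higher and 0 lower, while 3.33% of all probe sets were called higher and 2.34% lower. At an unadjusted p under 0.05, 8 of 9 passed against 18.1% of all probe sets, and 8 of 9 had arrays that did not overlap between the 2 tissues against 42.2%. The median log2 difference of the 9 was 0.90, and that of all probe sets -0.02.

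In the distal DA against the aorta, 0 of 9 were called, where 0.952% of all probe sets were called higher and 0.644% lower. Here 6 of 9 passed at an unadjusted p under 0.05 (10.8% of all probe sets) and 6 of 9 did not overlap (39.7%). These 6 were CHRM2, CHRNA7, ADRA1B, ADRA1D, ADRA2A and ADRB1, all higher in the distal DA, and the median difference of the 9 genes was 0.53. This comparison used the same aorta arrays as that of the proximal DA.

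In the proximal against the distal DA, 0 of 9 were called in the limma fit, and over all probe sets 0.159% were called higher and 0.0913% lower. At an unadjusted p under 0.05, 5 of 9 passed (7.31% of all probe sets), CHRM2, CHRM4, ADRA1D and ADRA2A as higher and CHRNA4 as lower. The arrays did not overlap for 6 of 9 (32.7%). The median difference was 0.18. The 9 genes had been picked with earlier results of these arrays known, so these shares describe them and are no test of the families.

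Of the other receptors on the gene lists, 16 were measured, which makes 25 with the 9 above, and 0 of the 16 were called in any comparison by limma. At the shares over all probe sets given above, less than 1 call would fall on a list of this length in any of the comparisons. Of these 16, 2 passed an unadjusted p under 0.05 in the proximal DA against the aorta, beside 18.1% of all probe sets. In the distal DA against the aorta 1 of them did, beside 10.8%. Between the proximal and the distal DA 0 did, beside 7.31%, and nothing is read from these counts. ADRA1A, the third alpha-1 receptor, was at 7.68 and 8.27 in the proximal DA, against 7.67 and 7.30 in the distal DA and 6.95 and 7.39 in the aorta, and its difference between the proximal DA and the aorta was 0.81 (unadjusted p = 0.0138, adjusted p = 0.133). CHRNA5, a nicotinic subunit that joins other subunits, was at 5.01 and 5.20 in the proximal DA, against 5.15 and 5.0 in the distal DA and 6.04 and 5.45 in the aorta. The proximal DA differed from the aorta by -0.64 (adjusted p = 0.154) and the distal DA by -0.67 (adjusted p = 0.255), with all 4 DA values below the lower quartiles of their arrays. In the RefSeq annotation CHRNA5 overlaps its neighbour CHRNA3, which did not follow it, with values between 4.48 and 4.70 in all arrays.

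Of the 16 other receptors, 6 lay below the lower quartile of the array in every array: CHRM5, CHRNA3, CHRNA8, CHRNA9, CHRNB3 and CHRNB4. Of the 9 receptors above, 0 did so, but these had been picked with earlier results of these arrays known, so nothing is read from this. CHRNA10 and CHRNB2 were well above the lower quartiles in every array, at 8.29 to 8.78 and at 7.35 to 7.87, with differences between tissues of at most 0.19 and 0.12. The beta receptor ADRB3 lay between 6.97 and 7.58, with differences of at most 0.19, and the alpha-2 receptor ADRA2C was at 5.90 and 5.62 in the proximal DA, against 6.16 and 6.35 in the distal DA and 5.69 and 6.37 in the aorta. ADRA2BL2, an alpha-2B-like gene added after its values could be seen, was at 7.66 and 7.45 in the proximal DA, against 7.53 and 7.65 in the distal DA and 7.24 and 7.28 in the aorta (adjusted p = 0.353 for the proximal DA and 0.486 for the distal DA against the aorta). Some listed receptors, such as ADRA2B and CHRNA1, were not analysed here.

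**Figure D3:**
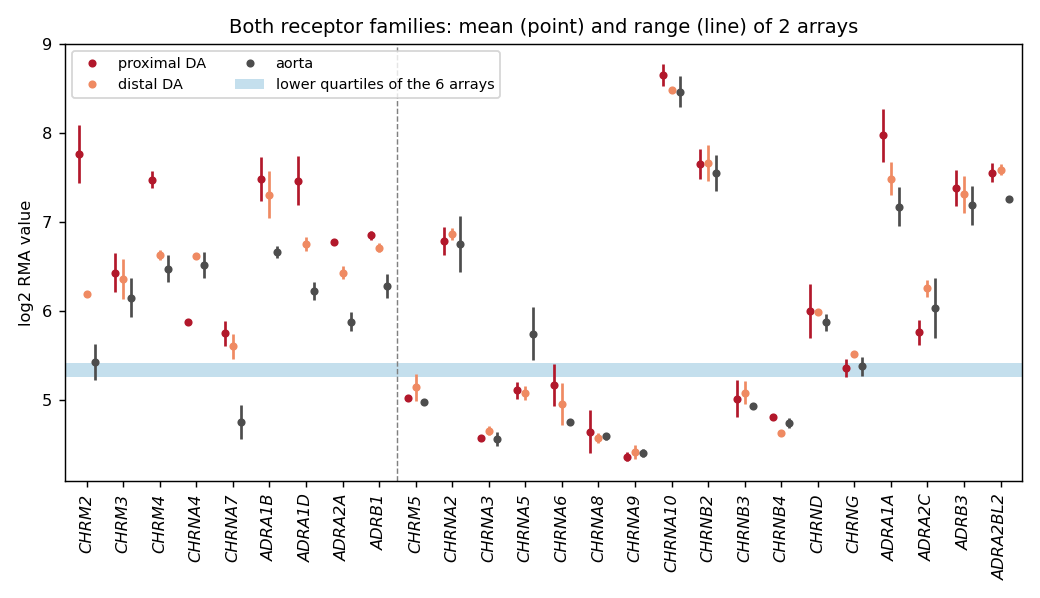
Log2 RMA value (vertical axis) of the 9 receptors, left of the dashed line, and of the other receptors of both families, right of it, with the mean as a point and the range of 2 arrays as a line for proximal DA, distal DA and aorta. The band gives the lower quartiles of the 6 arrays, 5.25 to 5.41, under which 6 of the other receptors lie in every array.

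The genes around the receptors were taken from lists of transmitter synthesis and clearance, receptor assembly, G proteins and effectors, and receptor kinases and arrestins, which with the other receptors gave 53 measured genes. In the proximal DA against the aorta, 4 of the 53 were called higher and 1 lower, beside 3.33% and 2.34% of all probe sets, with a median difference of 0.05. In the distal DA against the aorta, 1 was called higher and 1 lower, beside 0.952% and 0.644% of all probe sets. Between the proximal and the distal DA 0 were called by limma, beside 0.159% higher and 0.0913% lower. There 6 passed at an unadjusted p under 0.05, beside 7.31% of all probe sets. These counts are small, and nothing is read from them about the lists. The called genes were SLC6A2, MAOA, PLCB2, AGRN and LYPD6.

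Catecholamine clearance held 2 of the called genes. SLC6A2, the noradrenaline transporter that takes the transmitter back into nerve endings, was at 7.41 and 7.84 in the proximal DA, against 6.64 and 6.57 in the distal DA and 5.53 and 6.06 in the aorta, without overlap between tissues, as in CHRM2. Its difference was 1.83 between the proximal DA and the aorta (SE 0.22, 3.56-fold, adjusted p = 0.00431 from limma), 1.02 between the proximal and the distal DA (SE 0.22, adjusted p = 0.181) and 0.81 between the distal DA and the aorta (SE 0.22, adjusted p = 0.175). The call held with each array left out in turn. MAOA, the monoamine oxidase that breaks down noradrenaline and serotonin, was at 7.06 and 7.11 in the proximal DA, against 5.74 and 6.48 in the distal DA and 5.17 and 5.74 in the aorta. The proximal DA exceeded the aorta by 1.63 (SE 0.28, 3.1-fold, adjusted p = 0.0160), a call lost without proximal DA replicate 1 (0.0919) or replicate 2 (0.110), and 1 aorta value lay below the lower quartile of its array.

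The enzymes of catecholamine synthesis were not called. TH, the first enzyme of the pathway, stayed below the lower quartiles in every array, at 4.86 to 5.15, and DBH, which makes noradrenaline, lay between 6.85 and 7.05 in all 6 arrays. The extraneuronal transporter SLC22A3, singled out after its values were seen, had 8.14 and 9.34 in the proximal DA, against 8.35 and 9.24 in the distal DA and 7.34 and 8.31 in the aorta. Its replicate 2 was higher in every tissue, and neither the proximal DA (0.92 above the aorta, adjusted p = 0.388) nor the distal DA (0.97 above it, adjusted p = 0.563) passed. Of 4 measured genes of acetylcholine synthesis, storage and breakdown, 0 were called by limma and 0 passed at an unadjusted p under 0.05. The smallest p belonged to COLQ, which anchors acetylcholinesterase, at -0.19 between the proximal and the distal DA (unadjusted p = 0.350). CHAT, SLC18A3 and ACHE were not analysed here.

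**Figure D4:**
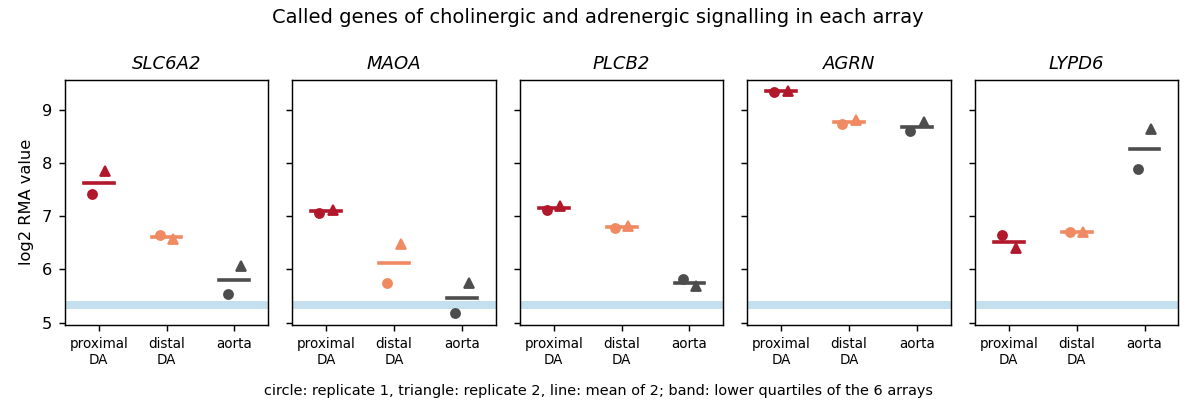
Log2 RMA value (vertical axis) in each array of proximal DA, distal DA and aorta for the 5 called genes of the lists around the receptors, with circles for replicate 1, triangles for replicate 2, lines for the mean of 2 and a band for the lower quartiles of the arrays. SLC6A2, MAOA and PLCB2 were high in the proximal DA and low in the aorta, and LYPD6 was high in the aorta, at 7.89 and 8.64.

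Downstream of the receptors, 1 of 12 measured G protein and effector genes was called. PLCB2, a phospholipase C that releases inositol trisphosphate on activation by G proteins, was at 7.11 and 7.19 in the proximal DA, against 6.78 and 6.82 in the distal DA and 5.81 and 5.69 in the aorta. The proximal DA was higher than the aorta by 1.4 (SE 0.14, 2.64-fold, adjusted p = 0.00180 from limma) and the distal DA by 1.05 (SE 0.14, 2.07-fold, adjusted p = 0.0146). The proximal DA call held without any single array, whereas the distal DA call was lost without distal DA replicate 1 (0.125), distal DA replicate 2 (0.133) or aorta replicate 2 (0.0625). PLCB2 is also known from leukocytes, whose markers went both ways. Against the aorta, CD74 was called higher in the proximal DA (1.09, adjusted p = 0.0203 from limma), while LCP1 differed by -0.30 in the proximal and -0.34 in the distal DA and SPI1 by -0.10 and -0.19. PTPRC was at 5.45 and 5.60 in the proximal DA, against 5.42 and 5.37 in the distal DA and 5.15 and 5.32 in the aorta. The measured alpha subunits of this list were not called, and those given next were named after their values were seen. GNAS and GNAI1, also listed, were not analysed here. GNAI2 differed by 0.41 between the proximal DA and the aorta (adjusted p = 0.162), GNA11 by -0.15 (0.643) and GNAQ by -0.14 (0.845). Of 4 measured receptor kinases, GRK2, GRK3, GRK4 and GRK7, 0 were called by limma. The listed arrestins ARRB1 and ARRB2 were not analysed here. The smallest p was that of the kinase GRK7, at -0.50 in the proximal DA against the aorta (unadjusted p = 0.0115, adjusted p = 0.118).

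Of 8 genes of nicotinic receptor assembly, 2 were called in the proximal DA against the aorta, in opposite directions. LYPD6, a membrane-anchored protein known to bind nicotinic receptors and to act in Wnt signalling, was at 6.65 and 6.39 in the proximal DA, against 6.70 and 6.70 in the distal DA and 7.89 and 8.64 in the aorta. The proximal DA differed from the aorta by -1.75 (SE 0.24, adjusted p = 0.00770 from limma) and the distal DA by -1.57 (SE 0.24, adjusted p = 0.0282). The study lists LYPD6 among the genes lowest in the distal DA against the aorta on these same arrays. Its distal DA call is thus not independent evidence. The proximal DA call was lost without proximal DA replicate 2 (0.0729). The distal DA call was lost without distal DA replicate 1 (0.156), distal DA replicate 2 (0.160), proximal DA replicate 1 or proximal DA replicate 2 (0.0694 each), and with the replicate number as a block (0.0558). AGRN, a proteoglycan of basement membranes that clusters acetylcholine receptors at the nerve-muscle synapse, was at 9.33 and 9.35 in the proximal DA, against 8.73 and 8.80 in the distal DA and 8.59 and 8.76 in the aorta. Its proximal DA mean exceeded that of the aorta by 0.67 (SE 0.14, adjusted p = 0.0367), and this call was lost with any 1 of the 6 arrays left out (adjusted p = 0.0717 to 0.133) and when only the proximal DA and the aorta were fitted (0.0871).

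Cell type markers moved with the receptors to different degrees. Summed over linear intensities, the 5 measured smooth muscle genes reached 11900 and 13700 in the proximal DA, against 10200 and 11100 in the distal DA and 4140 and 4270 in the aorta. Against the aorta, 4 of the 5 were called higher for the proximal DA and 5 of 5 for the distal DA. Over all probe sets these shares were 3.33% and 0.952%. The 8 endothelial genes summed to 3510 and 3800 in the proximal DA, against 2990 and 2740 in the distal DA and 1390 and 1460 in the aorta, with 6 called higher than in the aorta for the proximal DA and 4 for the distal DA. Between the proximal and the distal DA the smooth muscle genes did not move as one. DES was called higher by 1.25 (adjusted p = 0.0425 from limma) and TAGLN was 1.03 higher (adjusted p = 0.112), while MYH11 differed by -0.03, SYNPO2 by -0.02 and MYLK by -0.48. The probe set of DES has no symbol in the annotation used here and was named through the study. There it is listed among the genes highest in the DA against the aorta on these same arrays. Its calls, and its part in the counts and sums above, are thus not independent evidence. TAGLN, VWF and KDR are also on the study's lists of genes highest in the DA against the aorta, and the same holds for them. The part of these cell types in the receptor differences was not tested.

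Of the nerve markers, 0 of 8 were called by limma and 0 passed at an unadjusted p under 0.05. The 8 measured autonomic neuron genes summed to 393 and 352 in the proximal DA, against 359 and 355 in the distal DA and 356 and 367 in the aorta, and 5 of the 8 lay below the lower quartile in every array, TH among them. ELAVL4, a neuronal RNA-binding protein, was at 5.40 and 5.13 in the proximal DA, against 5.21 and 5.10 in the distal DA and 5.34 and 5.24 in the aorta. The 4 Schwann cell genes summed to 496 and 432 in the proximal DA, against 342 and 299 in the distal DA and 314 and 363 in the aorta, with 0 called by limma. In the proximal DA, 2 of the 4, SOX10 and NGFR, were higher at an unadjusted p under 0.05 both against the distal DA (list median 0.51) and against the aorta (0.31). Over all probe sets, 7.31% and 18.1% passed that threshold in either direction. SOX10, a transcription factor not particular to Schwann cells, was at 6.87 and 6.76 in the proximal DA, against 6.11 and 6.18 in the distal DA and 6.43 and 6.47 in the aorta. NGFR was at 7.92 and 7.74 in the proximal DA, against 7.28 and 7.11 in the distal DA and 6.91 and 7.39 in the aorta, and S100B stayed below the lower quartile in every array.

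Of 6 cardiac muscle genes, listed because CHRM2 and ADRB1 are abundant in heart muscle, 0 were called by limma. In the proximal DA against the aorta 1 of the 6, ACTC1, passed at an unadjusted p under 0.05, beside 18.1% of all probe sets. Its values were 5.40 and 5.07 in the proximal DA, against 4.67 and 5.04 in the distal DA and 4.52 and 4.65 in the aorta. Of these values 5 lay below the lower quartiles of their arrays. TNNT2, MYH6, MYL7, TNNI3, NPPA and NPPB, also listed, were not analysed here. The 6 cardiac muscle genes summed to 344 and 264 in the proximal DA, against 307 and 294 in the distal DA and 278 and 290 in the aorta. MYL2, the ventricular myosin light chain, was at 5.73 and 5.41 in the proximal DA, against 5.62 and 5.52 in the distal DA and 5.57 and 5.37 in the aorta. The 6 skeletal muscle genes summed to 8090 and 9170 in the proximal DA, against 5800 and 5760 in the distal DA and 1540 and 1310 in the aorta. In the DA these sums are nearly all ACTA1, and in the aorta less so, where ACTA1 was at 9.99 and 9.67. ACTA1 was the one gene called, in both parts of the DA against the aorta. The other 5 differed from the aorta by -0.13 to 0.20, and MYOD1 lay between 5.09 and 5.44. MYOG lay between 7.33 and 7.76 and MYF6 between 7.16 and 7.56. With no detection call, such values do not show that these genes were expressed.

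Melanocyte and lung epithelial genes set the proximal DA apart and split its 2 arrays. The 6 melanocyte genes summed to 484 and 922 in the proximal DA, against 247 and 226 in the distal DA and 206 and 236 in the aorta, and the 7 lung and airway genes to 1150 and 1840 in the proximal DA, against 713 and 684 in the distal DA and 674 and 718 in the aorta. Against the aorta, 4 of the 6 and 3 of the 7 were called higher in the proximal DA, beside 3.33% of all probe sets. Against the distal DA 1 of each list was called higher, beside 0.159%. TYR, TYRP1, DCT, EPCAM, LAMP3 and both SFTPA probe sets are on the study's list of genes highest in the proximal against the distal DA. That list was made from these same arrays, so that these counts are not independent evidence. TYR, the pigment enzyme, was at 6.58 and 7.91 in the proximal DA, and the surfactant protein SFTPA1 at 5.84 and 6.69. The split of the lung list came mostly from LAMP3, at 8.37 and 9.97, while the epithelial genes EPCAM (7.18 and 6.05) and CDH1 (7.18 and 6.86) were lower in replicate 2. Proximal DA replicate 2 had the higher sum for both lists. The smooth muscle, endothelial, skeletal muscle, and blood cell and leukocyte sums were higher in it as well. Its autonomic neuron, Schwann cell and cardiac muscle sums were lower than those of replicate 1. Among the receptors, proximal DA replicate 2 was the higher one for CHRM2, CHRNA7, ADRA1B and ADRA1D. It was the lower one for CHRM3, CHRM4, CHRNA4, ADRA2A and ADRB1. Without this array, CHRM2 was still called against the aorta (2.02, adjusted p = 0.0169), and CHRM4, CHRNA7, ADRA1D and ADRA2A were not. Their differences were then 1.1, 0.86, 0.97 and 0.90, of which that of CHRM4 was larger than with all arrays, that of ADRA2A the same within 0.01 and those of CHRNA7 and ADRA1D smaller. The part of these cell types in the receptor values was not tested. The 8 blood cell and leukocyte genes summed to 3450 and 6080 in the proximal DA, against 4400 and 5200 in the distal DA and 2190 and 2890 in the aorta, with 1 called, in the proximal DA against the aorta. This sum holds haemoglobin genes and is not one of leukocytes alone. In the proximal DA, HBA1 was at 9.65 and 11.21 and HBAD at 9.15 and 10.32, while HBZ was at 6.93 and 6.68.

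**Figure D5:**
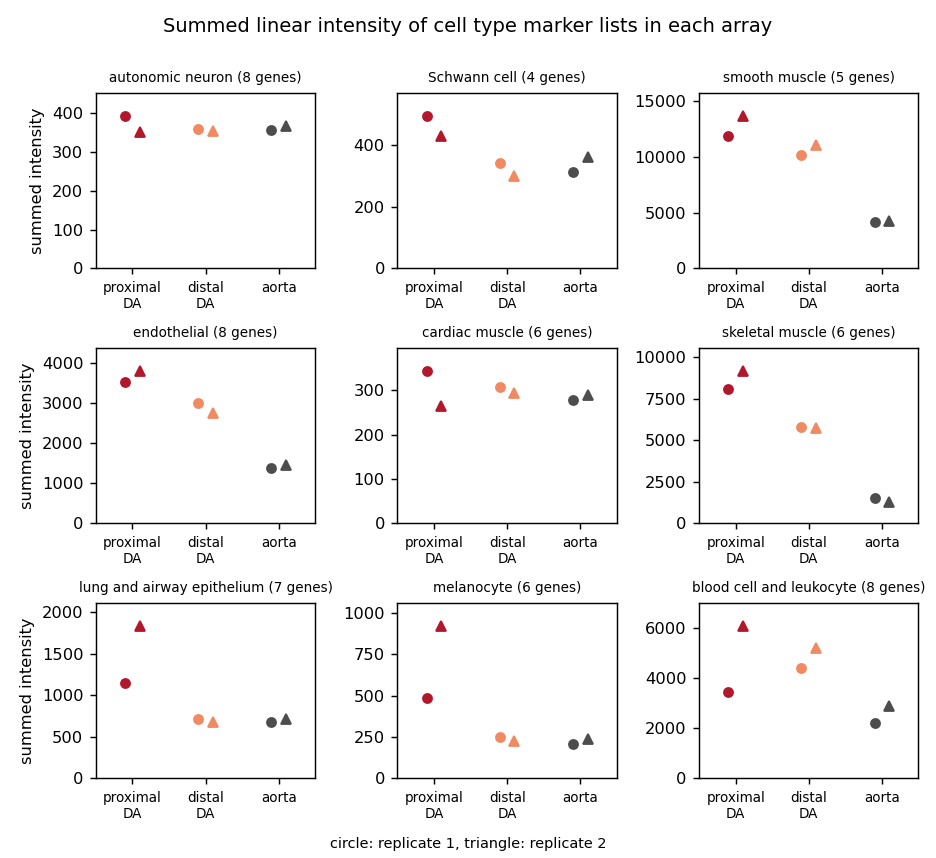
Summed linear intensity (vertical axis, from 0) of each cell type marker list in each array of proximal DA, distal DA and aorta, with circles for replicate 1 and triangles for replicate 2. Smooth muscle and endothelial sums were lowest in the aorta, autonomic neuron sums were nearly level (352 to 393), and melanocyte and lung sums were highest in proximal DA replicate 2 (922 and 1840).

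The genes with the most similar profiles were sought for the 5 called receptors, as the probe sets with 1 symbol whose centred log2 values over the 6 arrays had the smallest root mean square difference. For CHRM2 these were ITPK1 (0.160), GFRA1 (0.171), LRRC32 (0.200), PCDH15 (0.209) and CHN2 (0.215). GFRA1, the receptor of the neurotrophic factor GDNF, was at 7.73 and 7.97 in the proximal DA, against 6.24 and 6.0 in the distal DA and 5.17 and 5.41 in the aorta. For CHRM4 they were PRNP (0.0597), UGT8 (0.0709), FKBP1A (0.0881), MAML3 (0.104) and TSKU (0.106), and for CHRNA7 DUSP27 (0.0485), SUSD6 (0.0657), HSPA2 (0.0675), COL4A1 (0.0697) and TMEM47 (0.0756). ADRA1D lay nearest to TMEM45B (0.0779), SEMA3G (0.0815), KCNQ5 (0.0965), NKD1 (0.104) and FGFRL1 (0.122), and ADRA2A to MAML2 (0.0495), TSHZ3 (0.0640), GDPD5 (0.0707), EPS8L2 (0.0729) and LRFN3 (0.0781). With 6 arrays and 12299 probe sets to choose from, a close profile is a description only. No receptor of either family was on these lists of 5.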

How the data were processed

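RNA of proximal DA, distal DA and descending aorta was measured on 2 arrays per tissue. The authors labelled cDNA from 100 ng of total RNA, hybridized it to Affymetrix Chicken Gene 1.0 ST arrays and ran RMA in the oligo package (background correction, quantile normalization and summary per probe set). The deposited values are these log2 values, with the genome build of the annotation not given.

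Tissue means were fitted over all 6 arrays and all 20804 probe sets in limma 3.58.1 (R 4.3.3), with eBayes without trend, 3 residual and 4.40 prior degrees of freedom, and Benjamini-Hochberg adjusted p-values within a comparison. No probe set was removed. Of the probe sets, 12300 had 1 symbol, 256 several and 8248 none. The fit was tested on simulated data. The members and lists were chosen with earlier results of these data known. Named genes were all members, each called gene of the lists around them (in a list with none, the smallest p) and the 5 nearest profiles. Of the markers, the first measured ones of each list were to be named. Not all of these are given, and later ones, such as CD74, LAMP3, NGFR and ACTA1, were added with the values in view. Alternatives were a fit of only the 2 tissues compared, a variance trend with robust eBayes, a further quantile or cyclic loess normalization, the removal of probe sets dimmer than the median one, the replicate number as a block, and each array left out in turn. A tissue left with 1 array was assumed to vary like the others. Sequences, qPCR and histology were not used here.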

Additional observations from a re-analysis of the deposited data

How the results depend on the processing

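The count of receptors called in the proximal DA against the aorta was 5, and 5 or 6 when only the tissues compared were fitted, with trend and robust, after quantile normalization or cyclic loess, and with the replicate block (6). It was 2 without the probe sets dimmer than the median one, a filter by which 6 of the 9 receptors, CHRM2 among them, had been removed, and 1 to 5 with each array left out in turn (1 without proximal DA replicate 2, 2 without replicate 1, 3 without either aorta array). Between the proximal and the distal DA, 1 receptor, CHRM2, was called with trend and robust and 0 elsewhere, and in the distal DA against the aorta 1, CHRNA7, with the replicate block and 0 elsewhere. The called genes of the surrounding lists in the proximal DA against the aorta numbered 5, against 4 in the fit of only the compared tissues (AGRN was lost), 3 with that filter, 2 to 5 with each array left out and 6 with the replicate block. For the distal DA they numbered 2, against 1 with that filter and 1 in the fit of only the compared tissues, and 0 to 2 with each array left out. The causes were not tested, apart from the genes removed by the filter.

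Of the named differences, 3 receptors changed sign with an array left out, none of them called. CHRM3 ranged from -0.15 to 0.30 between the proximal and the distal DA and from -0.02 to 0.43 between the distal DA and the aorta. ADRA1B ranged from -0.085 to 0.445 between the proximal and the distal DA, and CHRNA4 from -0.045 to 0.245 between the distal DA and the aorta. For each gene 1 probe set was found, so that a median over several probe sets could not be run. Whether the replicate numbers pair the arrays is unknown: the deviations of same-numbered arrays correlated at 0.321 for the proximal and distal DA, 0.199 for the distal DA and the aorta, and -0.0339 for the proximal DA and the aorta.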
